A study of Mus musculus with 2 samples.

Results

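Binding of the zinc finger protein CTCF was described around 10 genes of fibroblast growth factor (FGF) signalling in the embryonic mouse lung. They were the ligand genes Fgf7, Fgf9 and Fgf10, the receptor genes Fgfr1 and Fgfr2, and the target genes Spry1, Spry2, Spry4, Etv4 and Etv5, chosen by name out of 21884 protein-coding genes. Their sites were all summits in each gene and within 100 kb of either end, which gave 65 of 54943 summits. Chromatin immunoprecipitation and sequencing (ChIP-seq) with a CTCF antibody had been done in 1 group of 2 replicates. The tissue was whole lung of B6NCrl embryos of both sexes at day 14.5, pooled over several dissections and pulverised, with no treatment and no second condition in the labels. The labels give a single biosample and donor record for both replicates, and differences between the replicates may be technical in part or in whole. Summits came from the optimal list, a deposited peak set that passed a threshold on the irreproducible discovery rate (IDR). The signal of a site is the authors' own value for that peak, on no absolute scale, and a percentile is its place within the optimal list. Peak lists hold no read counts and no expression, so depth is unknown and the tissue could not be checked against lung marker genes. With 1 group there was no comparison of conditions to test, and all counts below are descriptions.

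FGF signalling drives the branching of the lung. Fgf10 is made in the mesenchyme at the tips of the buds and acts on Fgfr2 in the epithelium, where the transcription factors Etv4 and Etv5 and the Sprouty inhibitors are switched on, and Sprouty proteins in turn damp receptor signalling. CTCF binds a long asymmetric DNA motif, and pairs of its sites whose motifs point toward each other (convergent) often anchor chromatin loops that hold genes and their enhancers together.

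The sequences at the sites that bracket each gene carry the motif strand on which the flank descriptions rest. They were read 5′ to 3′ on the strand of the motif from GRCm38.p6, whose chromosomes are those of mm10. The 20 motif bases are in capitals, with 5 further bases on each side. A motif learned from the strongest sites outside these gene windows had the consensus NNNCCACNAGNNGGCNNNNN. There N marks a position where no base reached 60% of the sites kept in learning it. Both strands were searched within 50 bp of each summit. The flanks of a gene are the nearest motif-bearing summits more than 1 kb beyond its ends, and the first pairs shown are those of Fgfr1, Fgfr2 and Etv5, which were convergent.
Fgfr1 upstream flank (chr8:25361625-25361654, plus strand): gacagAGGCCAGAAGAGGGCGCCTCagtga
Fgfr1 downstream flank (chr8:25627427-25627456, minus strand): caaagCAGCCAGAAGAGGGCATCAGatctc
Fgfr2 downstream flank (chr7:129948812-129948841, plus strand): acctcCCTCCAGCAGGGGGCACTACtcgct
Fgfr2 upstream flank (chr7:130267294-130267323, minus strand): tctgaAGGCCAGAAGAGGGCGTCGGgactc
Etv5 downstream flank (chr16:22375069-22375098, plus strand): tctgcATGCCAGAAGAGGGCATCAGataac
Etv5 upstream flank (chr16:22548223-22548252, minus strand): tctccTGGACAGCAGAGGGCAGCAGtgagg
Fgf10 is shown next because it had a single site in its window, between flanks that pointed away from each other.
Fgf10 upstream flank (chr13:118597013-118597042, minus strand): ggaaaCTGTCACCAGGTGGCGCCAAactgc
Fgf10 intron site (chr13:118763166-118763195, plus strand): ggtttCACCCACTAGAGGGCAGTGGgacat
Fgf10 downstream flank (chr13:119283611-119283640, plus strand): aaataAGGCCAGCAGAGGGCTCACAggtgc
The last set holds the motifs of the strongest motif-bearing sites of the 10 windows, which lay around Etv4 and Etv5.
Etv4 site at the Dhx8 promoter (chr11:101732745-101732774, minus strand): gtgatCCGTCAGCAGAGGGCGACCGtggcc
Etv4 upstream site, nearer (chr11:101813434-101813463, plus strand): tgttgCCGCCACCAGGTGGCAGTGTtggca
Etv4 upstream site, farther (chr11:101814965-101814994, minus strand): tccctCCACCACTAGGGGGCGCGCTctact
Etv5 site downstream (chr16:22302780-22302809, plus strand): gattgTGGCCACCAGGTGGTGCTCTagccc
The 12 bases CCAGAAGAGGGC, the commonest motif core in the whole list, can be read in both Fgfr1 flanks, in the upstream flank of Fgfr2 and in the downstream flank of Etv5, but not in the motifs of the strongest sites.

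Of the 10 genes, 4 had a summit within 1 kb of their transcription start site (TSS), namely Fgf7, Spry1, Spry4 and Etv5. Among all protein-coding genes the share was 26.7% (95% Wilson interval 26.2 to 27.3, which covers counting error only). By role these were 1 of 3 ligand genes, 0 of 2 receptor genes and 3 of 5 target genes. The 4 promoter summits had signals of 85.9 at Fgf7, 43.7 at Etv5, 28.3 at Spry1 and 21.1 at Spry4, so the Fgf7 summit was the only one of them above the list median of 62.3. Just outside the 1 kb limit lay summits 1017 bp inside Spry1, 1044 bp upstream and 1085 bp downstream of the Fgfr2 TSS, and 1064 bp upstream of that of Fgf7. The count therefore moved with the limit. It was 2 of 10 within 500 bp, 6 within 2 kb and 7 within 5 kb, against 20.2%, 33.2% and 44.7% of all genes. Single-replicate lists of the same length changed which genes were counted. Among the strongest peaks of replicate 2 alone Spry1 had no promoter summit, and in those of either replicate Fgfr1 had one, with 12.5 in replicate 1 and 8.9 in replicate 2.

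A summit lay inside 7 of the 10 genes, against 49.1% of all protein-coding genes, and the exceptions were Fgf7, Spry4 and Etv4. Gene length bears on that share, and the median length was 47 kb for the 10 genes and 16.4 kb for all. Of the 65 sites, 37 (56.9%) were intergenic and 17 (26.2%) intronic, against 37.4% and 40.9% of all optimal sites. Another 7 (10.8%) were within 1 kb of the outermost start of some annotated gene, against 14.7%, and the other 4 lay in exons.

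**Figure D1:**
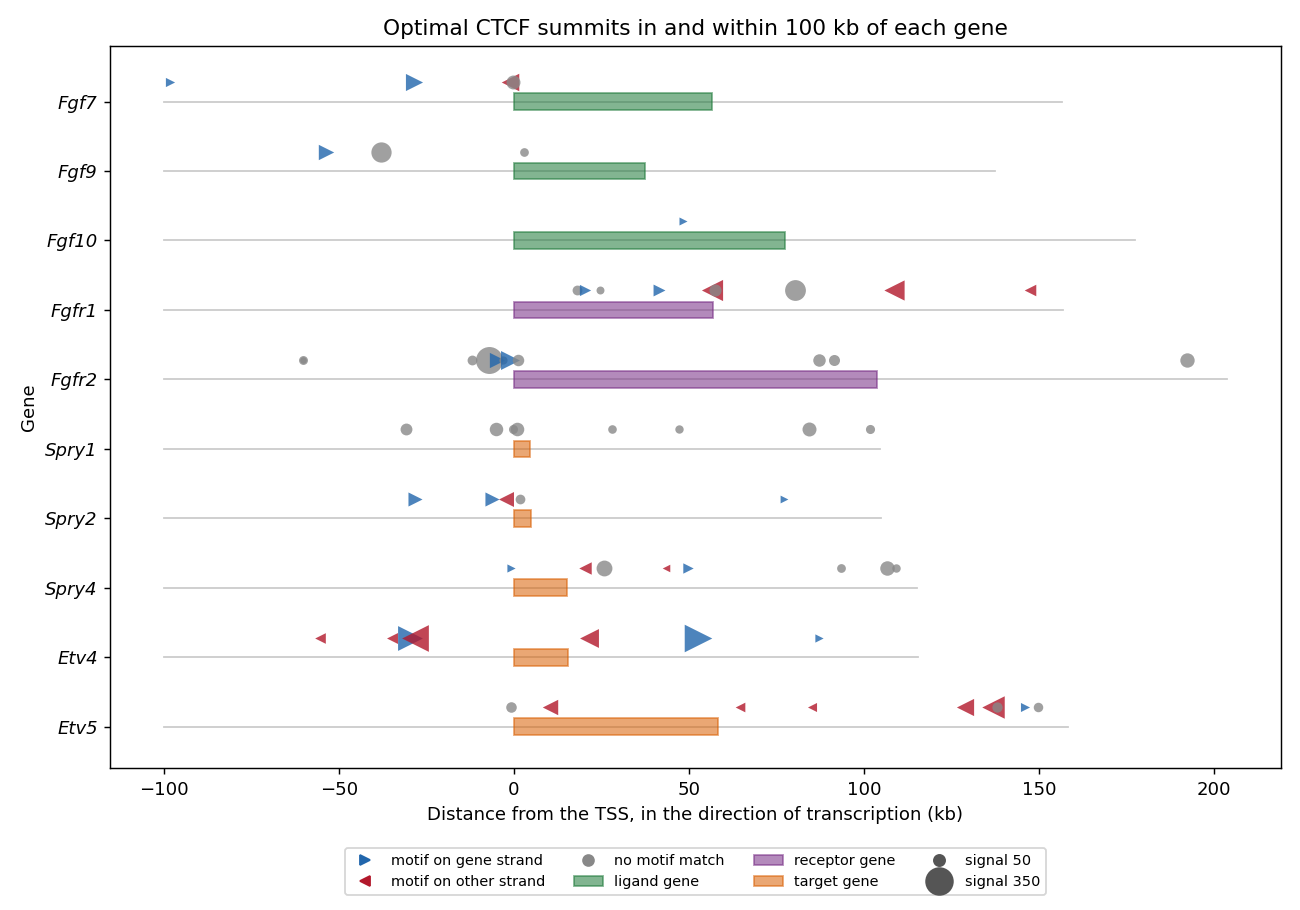
Each line of the plot is 1 gene with its window, drawn to scale in kb from the TSS in the direction of transcription, with the gene as a coloured box. Symbols are the 65 optimal summits, with size by signal, triangles pointing along the motif and grey circles where no motif was matched. Fgf10 has 1 summit and Fgfr2 has 11, most of them upstream of its TSS.

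Fgf7, which encodes a mesenchymal ligand of the epithelial form of Fgfr2 (chr2:126034658-126091185, plus strand), had 4 sites, all upstream of its TSS and within the overlapping gene Fam227b or its neighbour Galk2. The promoter summit, 137 bp upstream, had a signal of 85.9 in the optimal list and of 51.3 in replicate 1 and 34.3 in replicate 2, with no motif match. A stronger summit 1064 bp upstream had 144.0, with 75.8 and 66.1 in replicates 1 and 2, and its motif ran against the gene. It was close in signal to a site 28370 bp upstream, which had 136.8 (72.5 and 66.0 in the replicates) and a motif on the gene's strand. The weakest of the 4, 98037 bp upstream, had 30.03 (13.2 and 17.3). Downstream of Fgf7 the nearest summit was 154 kb away, with 66.9 in the optimal list, so the optimal list had summits close to the gene's start and none within 100 kb of its end.

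Fgf9, which encodes a ligand made in the mesothelium and early epithelium (chr14:58072686-58110174, plus strand), had 3 sites and no promoter summit at the TSS used. Over all annotated transcript starts its intron site, described below, counted as one. That made 5 of the 10 genes and 2 of 3 ligand genes, against 34.4% of all protein-coding genes. In neither replicate list did a peak have its summit within 1 kb of the TSS used. The site inside the gene, in an intron 2974 bp past the TSS, was weak, with 25.5 in the optimal list and 14.5 and 8.7 in replicates 1 and 2. Both other sites were upstream and stronger. The nearer, at 37900 bp, had 196.2 (106.2 and 87.2 in the replicates) without a motif match, and the farther, at 53618 bp, had 107.6 (61.3 and 43.0) with a motif on the gene's strand. The nearest summit downstream was 229 kb away, with 30.3.

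Fgf10, the ligand gene that lung budding depends on (chr13:118714699-118792115, plus strand), had 1 site, in an intron 48469 bp past the TSS. Its signal was 19.6 in the optimal list, at percentile 8.4, and 11.1 and 9.7 in replicates 1 and 2, and its motif ran with the gene. The peaks within 1 kb of its TSS in the replicate lists, with 8.51 and 6.25, did not enter the optimal list. Outside the gene the nearest summits lay 118 kb upstream, with 39.9 (17.9 and 19.9), and 492 kb downstream, with 176.1 (86.6 and 88.7). These were also its flanks, and the 686.6 kb between them held the start of no other protein-coding gene. The summit density around Fgf10, 3.6 per Mb, was at percentile 10.2 of all protein-coding genes.

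The 3 ligand genes were the 3 lowest of the 10 in summit density, with 15.6 per Mb for Fgf7 and 12.6 per Mb for Fgf9, at percentiles 23.7 and 19.6. Over all 10 genes the density ran up to 39.1 per Mb, with a median of 33.6 per Mb, against 34.8 per Mb for all protein-coding genes. The count of sites per window had a median of 7.5, against 9. Signal varied widely among the few ligand sites, from 19.6 at the only Fgf10 site to 196.2 at a site upstream of Fgf9. The ligand median was 96.8 over 8 sites, of which 4 were at Fgf7. It was 57.1 over 20 receptor sites and 44.6 over 37 target sites, with no test made.

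**Figure D2:**
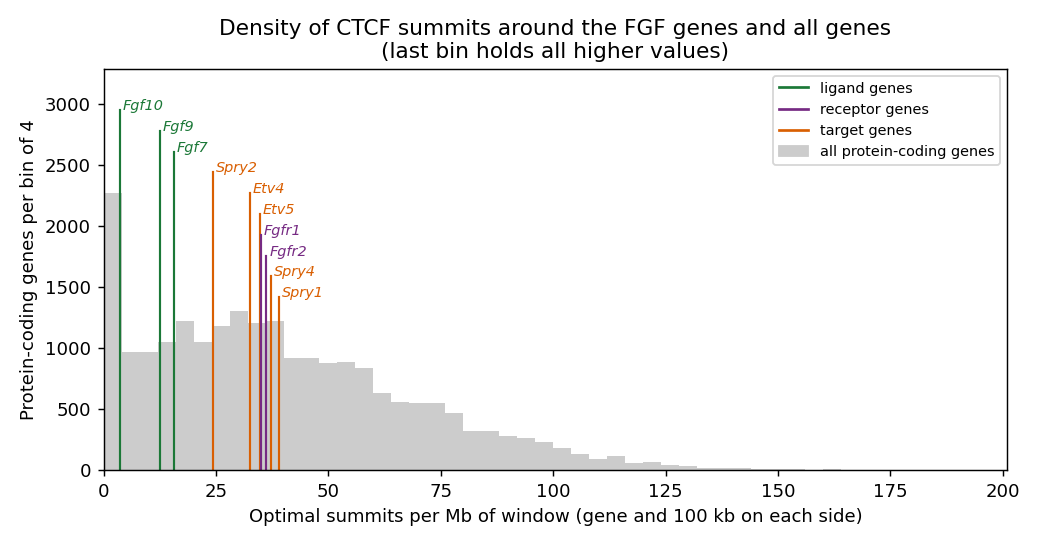
Optimal summits per Mb in each gene's window (horizontal axis), with the 10 FGF genes as coloured lines whose heights only separate the names, and all 21884 protein-coding genes as grey bars in bins of 4 per Mb. The ligand genes lie between 3.6 and 15.6 per Mb, and the receptor and target genes between 24.4 and 39.1 per Mb.

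Fgfr1, a receptor gene active in the lung mesenchyme (chr8:25518759-25575718, plus strand), had no summit upstream of it within 157 kb and 9 sites inside or beyond it. Of these, 5 lay inside the gene. The strongest, in the 3′ UTR 56537 bp past the TSS, had 215.7 in the optimal list and 107.7 and 107.6 in replicates 1 and 2, with its motif against the gene. Inside the gene the other 4 sites were intronic, lay between 18074 bp and 41413 bp past the TSS, and had signals between 19.03 and 59.02. The nearest summit beyond its end was only 478 bp away, with 62.1 and no motif match. Farther downstream, a site 23248 bp beyond the end had 207.7 (116.2 and 90.7 in the replicates) and lay in an exon of the non-coding gene D830025C05Rik, and one 51726 bp beyond had 195.6 (103.1 and 91.3) in an intron of Nsd3, a histone methyltransferase gene. The high sites of Fgfr1 were thus at its 3′ end and beyond it. Its promoter was outside the optimal list but not empty: the conservative list, cut at its own IDR threshold, had summits 50 and 249 bp past the TSS, with weak signals of 16.6 and 6.1.

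Fgfr2, the epithelial receptor gene for Fgf7 and Fgf10 (chr7:130162451-130266263, minus strand), had the most sites of the 10 genes, 11, of which 7 were upstream. The strongest, 7101 bp upstream of the TSS, had 357.7 at percentile 98.0, with 196.6 and 161.4 in replicates 1 and 2, and no motif match within 50 bp of its summit. The sites 4737 bp and 1044 bp upstream had 106.0 (48.8 and 59.96 in the replicates) and 170.0 (77.0 and 91.2), each with a motif on the gene's strand. Together these 3 sites placed high CTCF signal just upstream of Fgfr2, yet none was within 1 kb. Inside the gene were summits 1085 bp past the TSS, in a non-coding exon, with 54.4 (33.7 and 21.8), and 87072 bp and 91436 bp past it, in introns, with 66.4 and 48.9. Beyond its end the nearest was 88.5 kb away, with 92.0 (41.8 and 48.3). The weakest site of all 65 was 60241 bp upstream of Fgfr2, with 9.0 in the optimal list and 6.3 in replicate 2. It had no peak in replicate 1, which made it the only one of the 65 not in both replicate lists. Its peak overlapped that of the site 60040 bp upstream, with 27.4, and both were counted among the 11. The gene was taken from its coding (CCDS) transcripts. The GENCODE record of Fgfr2 is 2960.9 kb long because of 1 distant start, holds the starts of 29 other protein-coding genes, and would have given 123 sites in place of 11.

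**Figure D3:**
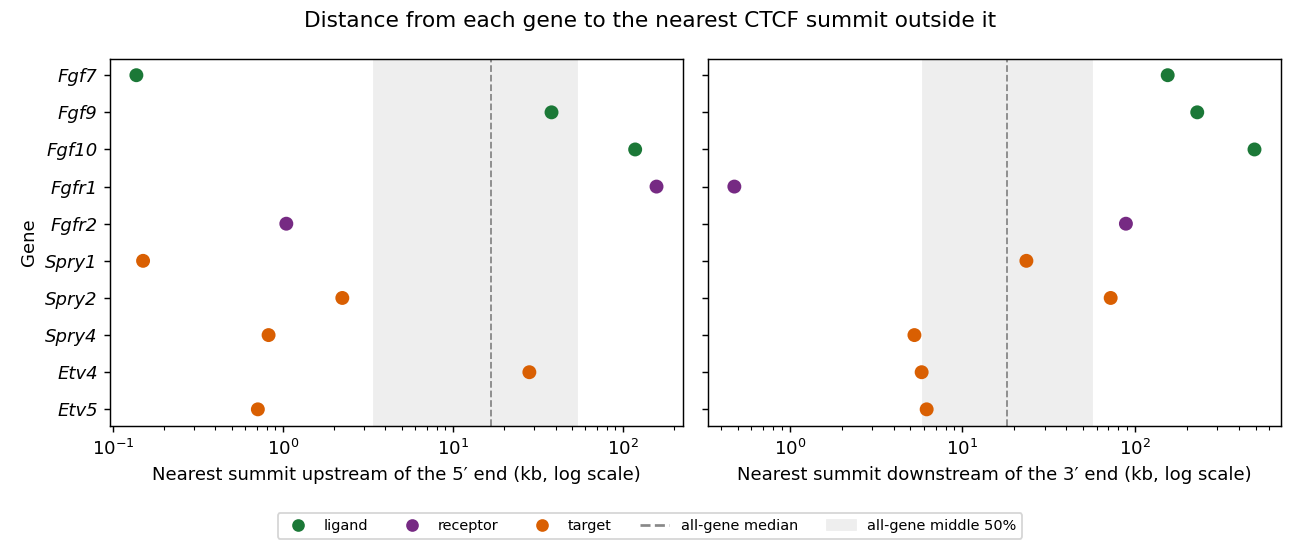
Distance in kb (log axes) from each gene to the nearest optimal summit upstream of its 5′ end (left) and downstream of its 3′ end (right), coloured by role. The dashed line and grey band are the median and the middle quartiles of all protein-coding genes. All 3 ligand genes are 154 kb or more from a downstream summit, a distance at percentile 87.3 of all protein-coding genes. An upstream summit lies within 2.23 kb at 6 of the 10 genes, a distance at percentile 21.2. These distances are those of Fgf7 and Spry2 and were picked after the values had been seen.

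Spry1, Spry2 and Spry4 encode Sprouty proteins, inhibitors of the signalling that runs from FGF receptors to the MAP kinases. Spry1 (chr3:37639947-37644598, plus strand) had 8 sites and no motif match at any of them. Its promoter summit, 150 bp upstream, had 28.3 in the optimal list and 18.7 and 8.7 in replicates 1 and 2. A summit inside the gene, 1017 bp past the TSS, had 80.5 (56.4 and 26.1), so both sites near its start were over 2 times as high in replicate 1, with a ratio of 2.16 at each. The strongest of the 8, with 86.7 (51.3 and 36.8), lay 144 bp from the TSS of Gm5148. Downstream of Spry1 the nearest summit was 23.5 kb away, with 24.6.

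Spry2 (chr14:105891947-105896819, minus strand) had 5 sites, 4 with a motif, and none within 1 kb of its TSS. Its 3 upstream sites were alike in signal. They had 101.6 at 2229 bp (64.7 and 37.1 in replicates 1 and 2), 88.8 at 6191 bp (49.3 and 41.5) and 87.9 at 28108 bp (47.4 and 40.4). The motif nearest the gene ran against it and the other upstream motifs ran with it. Inside the gene a summit 1680 bp past the TSS had 35.1 (22.3 and 19.9), and the nearest downstream summit, 72.2 kb away, had 17.6 (6.3 and 10.3).

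Spry4 (chr18:38586247-38601415, minus strand) had 8 sites, 7 of them downstream and none inside the gene. The promoter summit, 821 bp upstream, had 21.1 at percentile 10.7, with 11.7 and 10.2 in replicates 1 and 2, and a motif on the gene's strand. A single site of its window was weaker. The strongest was 10545 bp beyond the gene's end, with 114.9 (65.2 and 47.3) and no motif match, and the nearest beyond that end was 5.28 kb away, with 65.9 (35.8 and 31.5).

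Etv4 and Etv5 encode ETS transcription factors that carry out part of the epithelial response to FGF. Etv4 (chr11:101769742-101785371, minus strand) had 7 sites, none inside it and the nearest 21437 bp from its TSS, and all 7 had a motif match. Its window held the strongest of the 65 sites, with 375.2 at percentile 98.6 and 214.2 and 163.9 in replicates 1 and 2. That site was 182 bp from the TSS of Dhx8, an RNA helicase gene, so it belongs to a neighbour's promoter. Upstream of Etv4 a pair of sites 28074 bp and 29609 bp away had 352.1 (193.1 and 159.3) and 302.2 (171.2 and 130.6), with motifs on opposite strands that pointed toward each other. Nearest beyond its end, 5.81 kb away in a coding exon of Dhx8, was a site with 169.3 (109.9 and 59.4). The median signal of the 7 sites, 169.3, was the highest of the 10 genes.

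Etv5 (chr16:22381309-22439719, minus strand) had 9 sites, of which 7 were downstream. Its promoter summit, 710 bp upstream, had 43.7 (25.7 and 16.8 in replicates 1 and 2) without a motif match. The site inside the gene, in an intron 10482 bp past the TSS, had 108.2 (60.3 and 48.5), and the strongest, 78515 bp beyond its end, had 244.9 (133.4 and 110.5). The nearest beyond its end, 6.21 kb away, was weaker, with 34.6 (14.7 and 17.3). At the other limit of the window, a site 108512 bp upstream of Etv5 was left out although it had 236.0. Just inside that limit for other genes were the sites 98037 bp from Fgf7 and 97011 bp from Spry1, and just outside it was one 100017 bp from Etv4, with 109.2.

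The flanks were convergent at 4 of the 10 genes (Fgfr1, Fgfr2, Spry4 and Etv5), against 27.3% of the 21572 protein-coding genes with a flank on both sides. They were divergent at Fgf10 and Spry2, against 25.5%, and on 1 strand at the other 4, against 47.2%. No ligand gene had convergent flanks, but 3 genes are too few to set against the 27.3%. The convergent flanks of Fgfr1 had 35.2 upstream (18.1 and 17.1 in replicates 1 and 2) and 195.6 downstream, with 265.8 kb between them that held the starts of Letm2 and Nsd3, and the downstream flank lay in Nsd3 itself. Those of Fgfr2 had 170.0 upstream and 41.5 downstream (24.2 and 15.7), 318.5 kb apart. Those of Etv5 had 236.0 upstream (114.6 and 120.8) and 34.6 downstream, 173.1 kb apart, and those of Spry4 had 21.5 upstream (14.5 and 3.8) and 65.9 downstream, 202 kb apart. In each of these 4 pairs 1 flank was below the list median of 62.3. The interval between flanks had a median of 239 kb for the 10 genes, against 120 kb for all, and was shortest at Etv4, 49.51 kb, and longest at Fgf10. A motif on both sides describes these letters and strands only, and loops were not measured.

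A motif was matched at 33 of the 65 sites, against 58.1% of all optimal sites, and 17 of the 33 ran with their gene and 16 against it. The matches were uneven between genes, from 0 of 8 at Spry1 and 2 of 11 at Fgfr2 to 7 of 7 at Etv4. The split by signal lay near that of the whole list. Of the 11 sites in the top 25% of the list by signal 8 had a motif, against 79.9% of all sites there, and of the 19 in the bottom 25% 8 had one, against 35.9%. The second strongest of the 65 sites, that of Fgfr2 with 357.7, had no match. Of the 7 sites within 1 kb of the outermost start of any annotated gene 2 had a motif, against 32.3% of all such sites. Motif matching allowed 1% of windows shifted away from summits to pass, and a site without a match lacks only these letters within 50 bp.

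The commonest core, CCAGAAGAGGGC, was at 9 of the 33 motif-bearing sites (27.3%), against 16% of the 31937 in the list. This core was singled out after the values had been seen. The 9 lay at Fgfr1 (3 sites), Etv4 (2 sites), Fgfr2, Spry2, Spry4 and Etv5, and at none of the 5 motif-bearing sites in the ligand windows, too few to set against that share. The downstream flank of Fgf9, 229 kb beyond the gene, carried the core. All 9 were in sequence that the genome file marks in lower case as repetitive, as were 99.7% of all sites with this core and 15.2% of motif-bearing sites with another core. The family of repeat was not looked up. Their median signal was 48.1, beside 104 for the other motif-bearing sites of the 10 genes, and the medians in the whole list were 40.6 and 116. Motifs of any core were masked at 15 of the 33 (45.5%), against 28.7% of motif-bearing sites in the list. The masked ones had a median of 44.6 and the 18 unmasked ones 123, beside 44.2 and 133 in the whole list. Exceptions were the Fgfr1 site in Nsd3, with 195.6, and the Fgfr2 site 1044 bp upstream, with 170.0, which both carried the core. The part of repeat sequence in these signals was not tested.

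**Figure D4:**
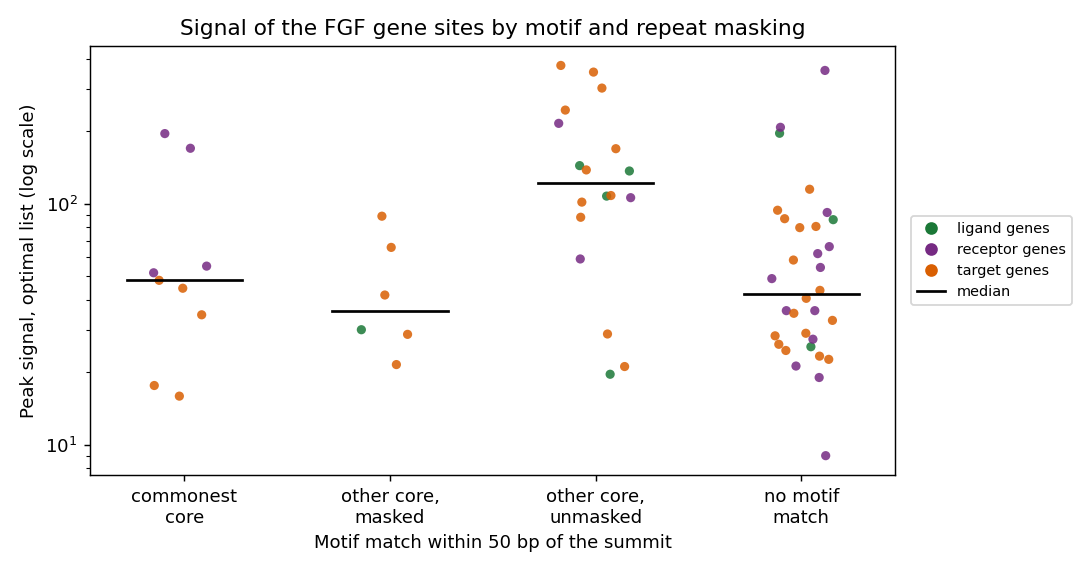
Signal of the 65 sites in the optimal list (log axis), by the motif within 50 bp of the summit, coloured by role, with black bars at the medians. The horizontal jitter carries no value. The median is 123 for the 18 unmasked motifs, and 48.1, 35.9 and 42.1 for the 9 sites with the commonest core, the 6 other masked motifs and the 32 sites with no match. In the whole list the medians are 133 for unmasked motifs and 44.2 for masked ones.

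Both replicates held nearly all of these sites. A replicate peak covered the summit in both lists at 64 of the 65, against 97.8% of all optimal sites, and a peak of the conservative list covered it at 60 of the 65, against 87.5%. The IDR lists were derived in part from the replicate lists, which hold 300000 peaks each, so these counts were largely built in. The ratio of signal in replicate 1 to that in replicate 2 had a median of 1.21 and ran from 0.578 to 4.34, against a median of 1.23 for all sites, 95% of which lay between 0.601 and 2.71. It was above 1 at 50 of the 64 sites and below 1 at 14, against 80.3% above 1 among all sites in both lists, so these sites lay near the whole list. The replicate lists are unscaled, so a ratio above 1 need not mean more CTCF. The highest ratio was at the site 42659 bp downstream of Spry1, with 19.6 in replicate 1 and 4.5 in replicate 2, where the replicate 2 summit lay 113 bp away. It was followed by the site 55209 bp upstream of Etv4, with 32.65 in replicate 1 and 11.95 in replicate 2. Over all 300000 peaks of each replicate list, which include far weaker ones, 8 of the 10 genes had a summit within 1 kb of the TSS in both lists, against 50.9% of all protein-coding genes. The exceptions were Fgf9, and Fgfr2, which had one in replicate 1 alone.

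**Figure D5:**
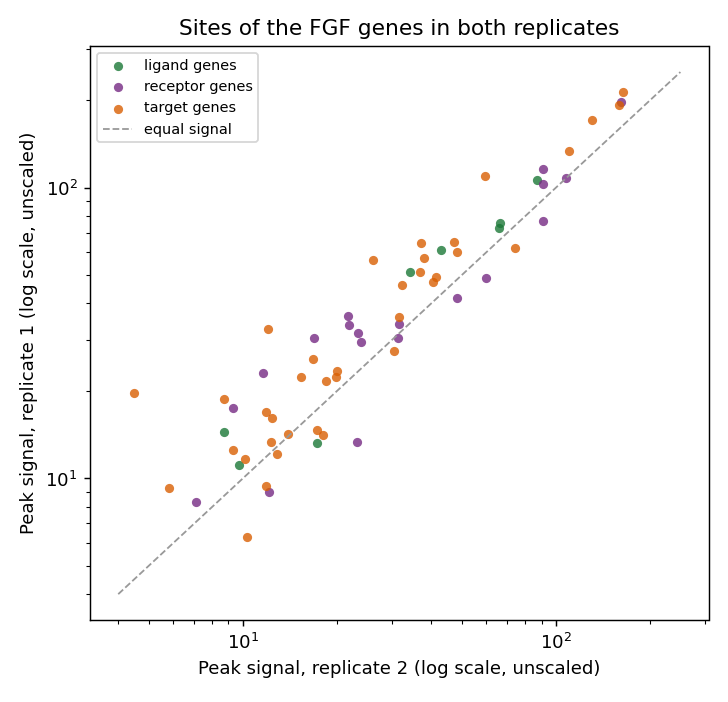
Signal in replicate 1 (vertical axis) against replicate 2 (horizontal axis), both on log axes and unscaled, for the 64 sites found in both lists, coloured by role. The dashed line marks equal signal, and 50 of the sites lie above it, 1 of them, in the Fgfr1 3′ UTR, by less than the width of a point (107.65 in replicate 1 and 107.6 in replicate 2).

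The promoters of the 10 genes, from 250 bp before the TSS to 50 bp after it, ranged from 42.7% GC at Fgf9 to 76.3% at Fgfr2, with a median of 58.5%, against 55.7% for all protein-coding genes. The ratio of observed to expected CpG dinucleotides had a median of 0.847, against 0.555. It was 0.394 at Fgf10, the lowest of the 10, and 1 at Fgfr2, the highest, and neither gene had a summit within 1 kb. Those with one, Fgf7, Spry1, Spry4 and Etv5, had 0.72, 0.935, 0.942 and 0.813.

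Beside the 10 genes, 58 other genes of the FGF pathway were described in the same way, and 26 (44.8%) had a summit within 1 kb of the TSS, against 26.7% of all protein-coding genes. By role, a summit lay there at 3 of 19 other Fgf genes, 1 of 5 receptor and co-receptor genes, 9 of 16 adaptor and transducer genes, 6 of 9 genes of feedback inhibitors and targets, and 7 of 9 heparan sulfate genes. The strongest 3 were at Ext2, an enzyme gene of heparan sulfate synthesis, with 347.4 (190.7 and 159.3 in replicates 1 and 2), at Cbl, a ubiquitin ligase gene that limits receptor signalling, with 325.9 (171.2 and 153.4), and at Fgf15, a ligand gene, with 259.6 (138.4 and 120.9). All of these exceeded the 85.9 at Fgf7, the strongest promoter summit of the 10 genes.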

How the data were processed

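CTCF ChIP-seq peaks of embryonic lung were analysed from the 5 deposited lists, all on mm10 per the labels: the optimal and conservative IDR lists, 1 list from the pooled reads and 1 from each replicate. Replicate lists were derived from alignments with a control, and IDR lists from the pooled and replicate lists, per the deposited README. Which aligner, peak caller and IDR cutoff were used is not given in the sources used here. Signal was deposited by the authors as the caller gave it, unscaled between lists. The deposited −log10 q values stop at a shared maximum and were not used.

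Summits on chromosomes 1 to 19, X and Y were kept, leaving out the 10 optimal peaks elsewhere. Genes came from GENCODE M21. Gene ends and the TSS were those of CCDS transcripts, which 20292 of 21884 protein-coding genes have, and of the gene record otherwise. A site matched a replicate peak that held its summit. The motif matrix, 20 bases wide, was learned in 15 rounds from the 3000 sites with the highest signal on odd-numbered autosomes more than 200 kb from the 10 genes. Each round left out the 30% of these sites with the lowest motif scores. The threshold score of the matrix was 9.85. Motif search and site counting were tested on simulated data.

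The members and lists were chosen with earlier results of these data known. Named were all 10 genes, and of their sites every promoter site, the nearest beyond each end, the strongest of each window and those inside a gene. Of the 58 pathway genes the rule named the 3 strongest promoter sites. Other named sites and genes were chosen after their values were seen. No test was made, and intervals are 95% Wilson intervals. Depth is unknown. Alternatives were other lists, each replicate left out, other windows, TSS sets and motif distances, and the gene record, chosen once the Fgfr2 record had been seen. Software was pysam 0.24.0, scipy 1.17.1, pandas 2.3.3, numpy 2.4.6 and matplotlib 3.10.9 under Python 3.11.15.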

Additional observations from a re-analysis of the deposited data

How the results depend on the processing

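Of 46 recomputed counts, 35 stayed within 1.5 times their value as reported. At the edge of that range, sites with a motif numbered 22 with a search within 100 bp, against 33. With a search within 25 bp they numbered 36, and each distance had its own threshold score. Genes with a promoter site numbered 4, but 2 with a limit of 500 bp, 7 with 5 kb and 0 among the strongest 10000 sites. The matching shares of all protein-coding genes were 20.2%, 44.7% and 4.25%, against 26.7% as reported, so both moved in the same direction. Among those strongest sites 9 summits lay in the windows in place of 65, 6 had a motif in place of 33, and 1 gene had a site inside it in place of 7. These sites are only 10000 of the 54943 summits, so lower counts are built in. The matching shares of all sites and genes are not given for them. With 200 kb on each side the windows held 124 summits. With the GENCODE gene record, an alternative chosen after the data were seen, they held 178 summits, of which 174 were in both replicate lists and 95 had a motif. Nearly all of that gain was at Fgfr2. Convergent flanks numbered 4, but 2 when the nearest summit of any kind was taken and pairs without a motif were not counted. The share among all protein-coding genes fell as well, from 27.3% to 11.2%. Leaving out either replicate gave 4 to 5 genes with a promoter site, 73 to 74 summits, 32 to 35 with a motif, 3 to 4 genes with convergent flanks and 6 to 7 with a site inside. Fgfr1 then had a promoter summit and Spry1, without replicate 1, had none. No paired analysis was possible because there is only 1 group. Peak lists without read counts give no depth, so a promoter without a listed summit is below the threshold of the list, not shown to lack CTCF.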
